A study of Gallus gallus with 6 samples.

Results

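The absorption of dietary protein ends with carriers that move short peptides and free amino acids through the enterocyte, and 10 chicken genes of these carriers were listed for description: 6 of the apical, lumen-facing membrane (SLC15A1, SLC6A19, SLC6A14, SLC7A9, SLC3A1 and SLC1A1) and 4 of the basolateral, blood-facing membrane (SLC7A7, SLC7A8, SLC3A2 and SLC38A2). Members were the rows of the deposited gene table that carry one of these symbols, which gave 7 of 16317 genes, and all 7 passed the filter on low counts. The 6 apical members were all found. Of the basolateral members only SLC38A2 was found under its symbol, so SLC7A7, SLC7A8 and SLC3A2 were not analysed here under those names and the comparison of apical with basolateral carriers rests on 1 basolateral gene. Membrane sides are those known from mammals and were not measured in these hens.

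Messenger RNA was sequenced from mucosa of the jejunum, the middle stretch of the small intestine and a main site of peptide and amino acid uptake, of SUT breeder hens aged 28 weeks. The heat group was held at 36 °C for 6 h and the control group was kept at 23 °C, and tissue came from 12 of the 25 hens per group. Each of 3 pools per group combined the RNA of 4 hens, and each pool was sequenced as 1 library, so that the spread between replicates is a spread between pools and not between hens. Mucosal RNA holds all cell types of the lining, and fewer cells of a type cannot be told apart from less RNA per cell.

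Apical carriers draw on ion gradients or on exchange. SLC15A1 (PEPT1) takes up short peptides with protons, members of the SLC6 family take up amino acids with sodium, and the heavy chain SLC3A1 and the light chain SLC7A9 form an exchanger that imports cystine and cationic amino acids in return for neutral ones. Basolateral carriers release amino acids to the blood or, like SLC38A2 (SNAT2), supply the cell with small neutral amino acids. In mammalian cells SLC38A2 is known for its induction when amino acids are scarce or the medium is hypertonic.

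The libraries held 11513427 to 12947832 summed estimated counts in heat pools and 13542604 to 13805395 in control pools, and the members had between 337 and 5285 counts in a library. The 6 heat shock genes examined as a check of the labels (HSPA8, HSPH1, HSPA2, DNAJA1, HSP90AA1 and BAG3) were higher in every heat pool than in every control pool on the scale of library-scaled counts (CPM). Of 15 enterocyte markers 14 were in the table and none was at 0. They summed to 21601 to 44179 FPKM (fragments scaled by gene length and library size) in heat pools and 30924 to 51387 FPKM in control pools, with heat pool 2 the lowest. Most of the sum came from FABP1, FABP2 and APOA1, at 5497.88, 5237.59 and 6765.37 FPKM in heat pool 2. The gene lengths implied by counts and FPKM were short for these genes, at 0.214, 0.0966 and 0.683 kb, which raises their FPKM for a given count. The median deviation of the 14 markers from the control mean (log2 CPM) was also lowest in heat pool 2, at -0.41. By FPKM, SI was nevertheless highest there, at 268.56 against 260.36 in heat pool 3. As CPM it was 1579 in heat pool 2 and 1612 in heat pool 3. Of these 14 markers VIL1, HNF4A and MYO1A were lower in every heat pool than in every control pool on the CPM scale. In the same sense 0 markers were higher, and over all genes 12.9% were lower and 11.6% higher. The log2 fold change was positive for 6 of the 14 markers and negative for 8, with a median of -0.056. The summed FPKM of 10 fibroblast markers was 430 to 827 in heat pools and 480 to 679 in control pools, that of 8 smooth muscle markers 413 to 942 and 422 to 821, that of 8 T cell markers 602 to 972 and 788 to 1017, that of 8 B and plasma cell markers 3427 to 4435 and 2726 to 5834, and that of 8 goblet and enteroendocrine markers 1472 to 2054 and 1791 to 2568. The B and plasma cell sum was nearly all JCHAIN, at 3336.12 to 4277.58 FPKM in heat pools and 2494.61 to 5709.02 FPKM in control pools. AGR2 was the largest part of the goblet and enteroendocrine sum, at 885.91 to 1326.14 and 1306.35 to 1740.70 FPKM. Of the 7 tested genes of that list 3 had a positive fitted change, MUC2 among them, and 4 a negative one. CD3D was the largest part of the T cell sum. The implied lengths of AGR2 and CD3D were also short, at 0.541 and 0.481 kb. Heat pool 2 differed from the other heat pools in its heat shock genes. The median deviation of these 6 genes from the control mean (log2 CPM) was 3.26 there. It was 0.97 and 1.37 in heat pools 1 and 3. The first principal component (37.6% of the variance) placed heat pool 2 at -45.69, against -7.999 and -6.499 for heat pools 1 and 3. Control pools had 16.53 to 27.12 on it, so that it set all heat pools apart from all control pools. Along the next component (20.4%), heat pool 3 had a value of -38.84, far below every other pool. Heat pools 1 and 2 had 13.51 and 10.33 there, and control pools 2.7 to 7.505. The part of heat pool 2's stronger heat shock signal, of heat pool 3's separate position and of these cell types in the results below was not tested.

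After 6 h of heat no member passed the threshold of 0.05 on the adjusted p when edgeR was fitted to 13060 genes, a fit that called 0.023% of all genes higher and 0% lower. At an unadjusted p under 0.05, SLC38A2 and SLC3A1 were higher and no member was lower, which is 2 of 7 members against 8.87% of all genes higher and 9.02% lower. DESeq2 called SLC38A2 higher, as it did 2.76% of the genes it gave an adjusted p, and called no member lower, against 2.26% of those genes. Of the 6 heat shock genes, with a median log2 fold change of 2.28, edgeR also called 0 at the adjusted threshold, and DESeq2 called 4 higher. A gene that missed the edgeR threshold, here or in the lists below, is therefore not shown to be unchanged. The fitted change was positive for 6 of 7 members, with a median log2 fold change of 0.29 against -0.0027 over all genes tested. Without heat pool 3 the members' median was 0.16, and without heat pool 2 it was 0.36. The CPM of the heat pools did not overlap with that of the control pools for 2 of 7 members, SLC38A2 and SLC3A1, against 24.5% of all genes in either direction. These shares are counts over few genes, and nothing particular to the transporters is read from them.

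**Figure D1:**
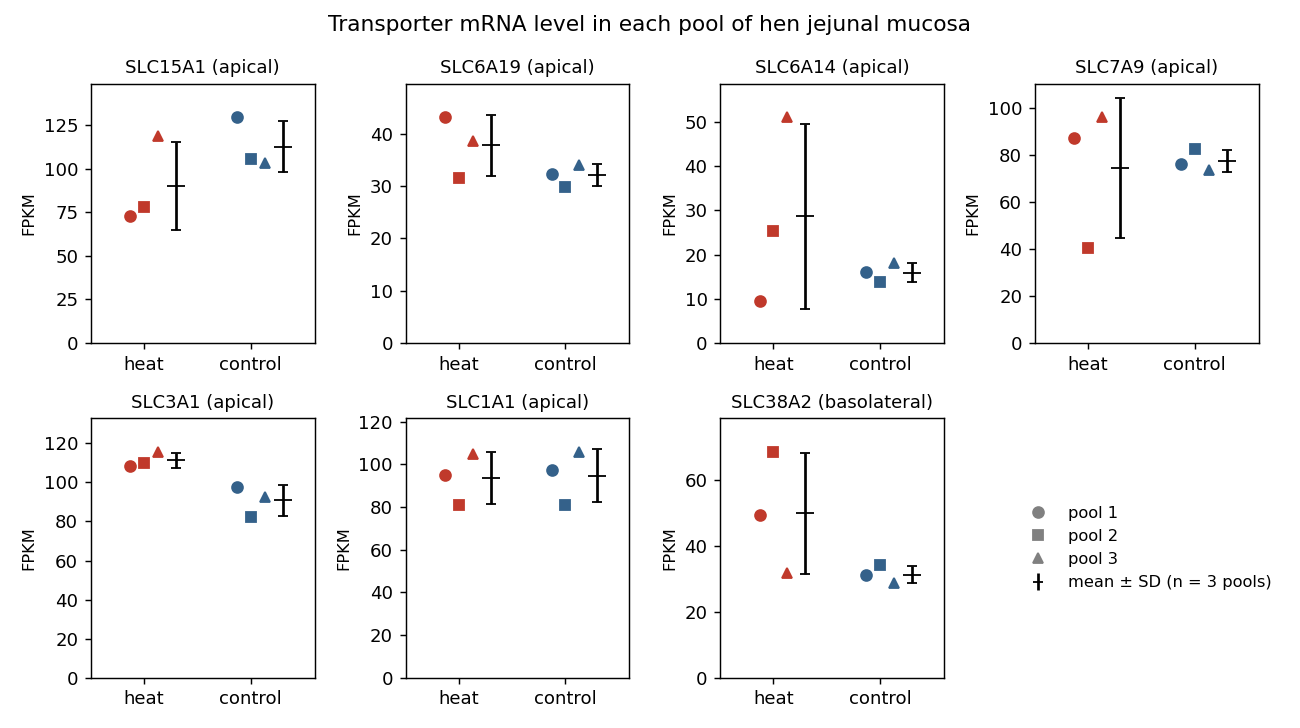
Level of the 7 transporter genes (FPKM, linear axis from 0) in 3 heat pools (red) and 3 control pools (blue), with marker shapes for the pool number and black bars for the mean ± SD of 3 pools. SLC3A1 is the gene whose heat pools all lie above its control pools on this scale, while SLC6A14, SLC7A9 and SLC38A2 are spread widely among the heat pools.

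SLC15A1, the peptide carrier, had 73.04, 78.27 and 119.00 FPKM in heat pools 1, 2 and 3, against 129.42, 105.38 and 103.43 FPKM in control pools 1, 2 and 3. Heat pools 1 and 2 were below all control pools and heat pool 3 was within their range. The means were 90.1 ± 25.2 and 113 ± 14.5 FPKM (SD, n = 3 pools each). The log2 fold change was -0.26 (SE 0.23, edgeR adjusted p = 0.594), a difference within the spread between pools. Without heat pool 3 it was -0.55 (edgeR adjusted p = 0.0984), and without heat pool 1 or control pool 1 it was -0.10 and -0.14.

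Set against the other members, SLC15A1 took a smaller part of the summed FPKM of these 7 genes in the heat pools. It made up 15.7%, 18.0% and 21.4% of the summed FPKM of the 7 members in heat pools 1, 2 and 3, against 27.0%, 24.6% and 22.7% in control pools 1, 2 and 3. These shares did not overlap between the groups, although the FPKM and the CPM of SLC15A1 itself did. The margin was narrow in heat pool 3, where SLC15A1 was at 1.06 times its control mean FPKM. SLC6A14 made up 9.16% of the sum there, against 3.21% to 3.94% in control pools. The shares of SLC3A1 did not overlap either, by a narrow margin in heat pool 3, and went the other way. They were 23.3%, 25.3% and 20.7% in heat pools against 20.3%, 19.1% and 20.3% in control pools. The shares of every other member overlapped. Such shares depend on the other members as well, because the 7 shares of a pool add up to the whole, and they were not tested. They have no counterpart over all genes, of which 24.5% did not overlap as CPM. By FPKM, SLC15A1 was the highest of the 7 in control pools 1 and 2 and came after SLC1A1 in control pool 3. It was also the highest in heat pool 3, while SLC3A1 was the highest in heat pools 1 and 2.

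SLC3A1, the heavy chain that brings the cystine exchanger to the membrane, varied least of the 7 among the heat pools, with a coefficient of variation of its CPM of 8.09% there and 9.82% among control pools. It had 108.32, 109.91 and 115.48 FPKM in heat pools 1, 2 and 3, against 97.57, 82.15 and 92.79 FPKM in control pools 1, 2 and 3, and the groups did not overlap. The means were 111 ± 3.76 and 90.8 ± 7.89 FPKM (SD, n = 3 pools each), and the log2 fold change was 0.35 (SE 0.12, edgeR adjusted p = 0.204, unadjusted p = 0.0226). It lay between 0.27 and 0.41 without each pool in turn. In the reference gene table of a later assembly (GRCg7b) the gene overlaps PREPL, a peptidase-like gene, and the estimated counts of both were not whole numbers in any of the 6 pools, so that reads of the 2 genes may have been divided between them. PREPL was much lower, at 3.58 to 4.21 FPKM in heat pools and 3.53 to 4.38 FPKM in control pools, with a log2 fold change of 0.035 (SE 0.17).

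SLC7A9, the light chain that does the transport in the same exchanger, had 87.33, 40.57 and 95.97 FPKM in heat pools 1, 2 and 3, against 76.16, 82.62 and 73.44 FPKM in control pools 1, 2 and 3. Heat pools 1 and 3 were above every control pool, and heat pool 2 was at 0.524 times the control mean. The log2 fold change was 0.0099 (SE 0.29, edgeR adjusted p = 0.99). It was 0.31 without heat pool 2 and -0.27 without heat pool 3, and neither value passed. In the GRCg7b table SLC7A9 overlaps CEP89, which was not analysed here, and no strand setting of the counting is known. SLC1A1 and SLC38A2 overlap long non-coding RNA genes in that table, which were not analysed here either.

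The light chain over the heavy chain, as a ratio of FPKM, was 0.806, 0.369 and 0.831 in heat pools 1, 2 and 3, against 0.781, 1.01 and 0.791 in control pools 1, 2 and 3. Heat pool 2 had the lowest ratio and control pool 2 the highest, and the remaining 4 pools were close together. The mean log2 ratio was -0.67 ± 0.66 in heat pools and -0.23 ± 0.21 in control pools (SD, n = 3 each), a difference of -0.44 with p = 0.6 in an exact two-sided permutation test, whose smallest possible p is 0.1. Without heat pool 2 the difference was -0.06. Ratios over the heavy chain SLC3A2 could not be formed here.

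**Figure D2:**
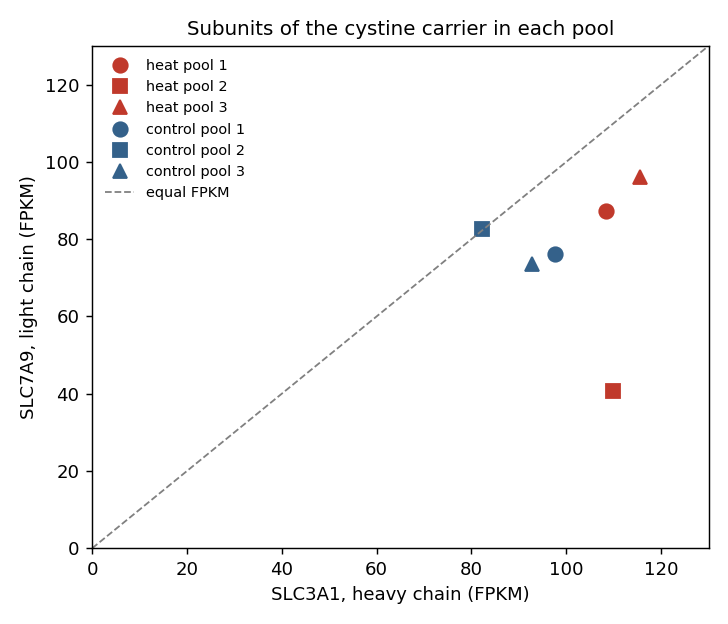
SLC7A9 (light chain) against SLC3A1 (heavy chain), both in FPKM, in each of 3 heat pools (red) and 3 control pools (blue); the dashed line marks equal FPKM. Heat pool 2 stands below the other pools at 40.57 FPKM of SLC7A9, although its SLC3A1 of 109.91 FPKM is among the high values.

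SLC6A14, a sodium- and chloride-driven carrier of neutral and cationic amino acids, differed most between heat pools. It had 9.59, 25.21 and 51.01 FPKM in heat pools 1, 2 and 3, against 15.96, 13.75 and 17.97 FPKM in control pools 1, 2 and 3. Heat pool 1 was below every control pool, whereas heat pools 2 and 3 were above them, at 1.59 and 3.21 times the control mean. The coefficient of variation of its CPM was 76.7% among heat pools and 14.0% among control pools, where the medians over all genes tested were 15.8% and 10.9%. The log2 fold change of 0.93 (SE 0.51, edgeR adjusted p = 0.379) was 0.16 without heat pool 3 and 1.36 without heat pool 1.

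SLC6A19 (B0AT1), the main sodium-driven carrier of neutral amino acids in the brush border, had 43.07, 31.57 and 38.50 FPKM in heat pools 1, 2 and 3, against 32.23, 29.85 and 33.98 FPKM in control pools 1, 2 and 3. Heat pool 2 lay within the control range and the other heat pools lay above it. The log2 fold change was 0.29 (SE 0.15, edgeR adjusted p = 0.34). Its estimated counts were also not whole in any pool, and the gene length implied by counts and FPKM was 10.6 kb, against 1.48 to 4.77 kb for the other members, which lowers its FPKM for a given count.

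SLC1A1 (EAAT3), which takes up glutamate and aspartate, was at nearly the same level in both groups. It had 94.86, 80.87 and 105.11 FPKM in heat pools 1, 2 and 3, against 97.50, 81.18 and 105.75 FPKM in control pools 1, 2 and 3. The ranges overlapped almost completely, and the log2 fold change was 0.041 (SE 0.16, edgeR adjusted p = 0.927).

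SLC38A2 was the only basolateral member, and it had the second largest fitted change of the 7. It had 49.29, 68.48 and 31.89 FPKM in heat pools 1, 2 and 3, against 31.17, 34.07 and 28.67 FPKM in control pools 1, 2 and 3. Heat pools 1 and 2 were above every control pool and heat pool 3 fell between the control pools on this scale. As CPM, which scales libraries by TMM, the values were 229, 332 and 163 in heat pools against 147, 158 and 134 in control pools, so that heat pool 3 was just above the highest control pool. The log2 fold change was 0.72 (SE 0.24), which missed the threshold in edgeR (adjusted p = 0.18) and passed in DESeq2 (adjusted p = 0.0481, log2 fold change 0.73). Leaving out heat pool 2 gave 0.42 in edgeR (adjusted p = 0.357), and leaving out heat pool 3 gave 0.94 (adjusted p = 0.0654).

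**Figure D3:**
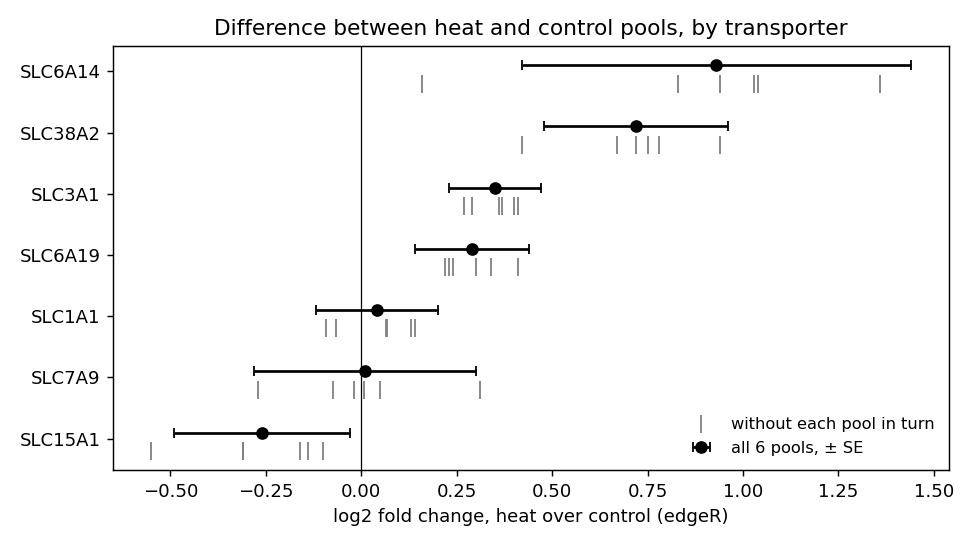
log2 fold change of heat over control for each of the 7 transporter genes from edgeR (black points, bars ± SE), with grey ticks for the 6 fits that each leave out 1 pool. SLC6A14 ranges from 0.16 to 1.36 and SLC38A2 from 0.42 to 0.94, while SLC3A1 keeps to 0.27 to 0.41.

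The apical members together did not separate the groups. Their summed level was 416, 366 and 525 FPKM in heat pools 1, 2 and 3, against 449, 395 and 427 FPKM in control pools 1, 2 and 3, which overlap. SLC38A2 was at 11.8%, 18.7% and 6.07% of the apical sum in heat pools, against 6.94%, 8.63% and 6.71% in control pools, so heat pools 1 and 2 were above the control range and heat pool 3 below it. The median log2 fold change of the 6 apical members was 0.17, with 5 positive and 1 negative. These are descriptions with no test of the apical against the basolateral side.

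By FPKM, the members fell into a high and a low set in the control pools. SLC15A1 (113 ± 14.5 FPKM), SLC1A1 (94.8 ± 12.5), SLC3A1 (90.8 ± 7.89) and SLC7A9 (77.4 ± 4.72) formed the high set, in which each neighbour in this order overlapped with the next (SD, n = 3 pools). SLC6A19 (32.0 ± 2.07 FPKM) and SLC38A2 (31.3 ± 2.70) overlapped with each other, and SLC6A14 (15.9 ± 2.11) was the lowest in every control pool. In the heat pools the order was not kept: SLC38A2 was above SLC7A9 in heat pool 2, and SLC6A14 was above SLC6A19 and SLC38A2 in heat pool 3.

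Each heat pool had its own profile across the members, as the map of deviations shows. Heat pool 1 combined low SLC15A1 and SLC6A14 (log2 CPM -0.63 and -0.72 from the control mean) with SLC38A2 at 0.65 and SLC6A19 at 0.42. The medians of the smooth muscle, B and plasma cell, T cell, and goblet and enteroendocrine markers were -0.52, 0.28, 0.25 and -0.25 there. Those of the enterocyte markers and of 14 peptidases were -0.085 and -0.20. Heat pool 2 had SLC38A2 at 1.18, SLC6A14 at 0.72, SLC7A9 at -0.88 and SLC15A1 at -0.47. In that pool the median of the enterocyte markers was -0.41, that of the peptidases -0.20 and that of the fibroblast markers 0.54. The medians of the smooth muscle, B and plasma cell, and T cell markers were 0.60, -0.75 and -0.26. Heat pool 3 had all 7 members above the control mean, from 0.15 for SLC38A2 to 1.81 for SLC6A14. The median of the peptidases was 0.56 there and that of the enterocyte markers 0.093. The medians of the smooth muscle, fibroblast, and B and plasma cell markers were 0.75, -0.43 and -0.24. Among control pools the medians of the B and plasma cell markers ran from -0.46 to 0.44. Those of the smooth muscle markers ran from -0.32 to 0.38. Those of the fibroblast, goblet and enteroendocrine, and T cell markers ran from -0.30 to 0.18, -0.26 to 0.19 and -0.25 to 0.18. The B and plasma cell medians of heat pools 1 and 3 lay within the control range, as did the goblet and enteroendocrine median of heat pool 1. The part of cell makeup in these profiles was not tested.

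**Figure D4:**
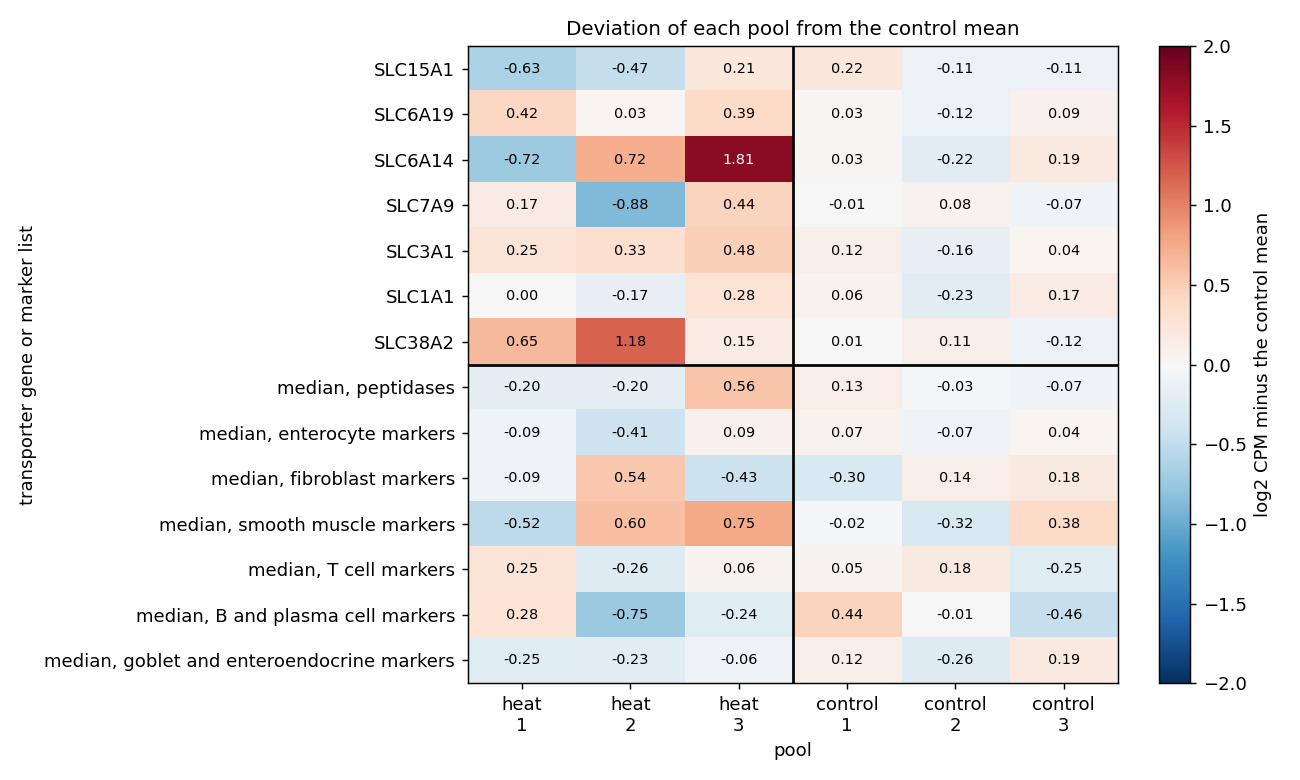
Deviation of each pool from the control mean (log2 CPM, colour and printed value) for the 7 transporter genes (upper rows) and the median of marker lists and peptidases (lower rows), with heat pools left of control pools. The control columns stay within 0.23 of 0 for the transporters, and they centre on 0 because their own mean is the reference. In the lower rows the control columns run from -0.46 to 0.44. The heat columns run from -0.88 to 1.81, a range that also holds any difference between the groups.

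The genes whose profile was most like that of SLC15A1 over the 6 pools, among all tested genes outside the lists, were FUT6 (Pearson r = 0.9969 of log2 CPM), TMEM79 (0.9904) and ATP5F1 (0.9899). They were the highest of all genes compared over 6 libraries that share their depth and make-up, so these values are a description only.

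The table holds 1 gene that bears on basolateral export under another name. Gene 420216 is listed as SLC7AL there and as SLC7A7 in the RefSeq gene table of GRCg7b. SLC7A7 is the light chain that exports cationic amino acids. It had 1.19, 1.44 and 1.08 FPKM in heat pools 1, 2 and 3, against 0.51, 1.07 and 0.72 FPKM in control pools 1, 2 and 3, with 30 to 72 counts in a library. Every heat pool was above every control pool, heat pool 3 by a narrow margin, and the log2 fold change was 0.74 (SE 0.29, edgeR adjusted p = 0.237). The related light chain SLC7A6, chosen after its values were seen, was far higher at 91.61, 99.92 and 104.73 FPKM in heat pools and 90.10, 80.32 and 94.11 FPKM in control pools. Its log2 fold change was 0.22 (SE 0.13, edgeR adjusted p = 0.412), with 0.14 without heat pool 3 and 0.30 without heat pool 1. Another amino acid carrier, SLC43A2, also chosen after its values were seen, had a negative fitted change. It had 30.85, 24.50 and 45.51 FPKM in heat pools against 41.41, 41.65 and 41.26 FPKM in control pools. The log2 fold change was -0.24 (SE 0.23, edgeR adjusted p = 0.633), and -0.047 without heat pool 2.

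Of 30 other amino acid transporters, 27 were in the table and 24 were tested. None passed in edgeR, DESeq2 called 1 higher (against 2.76% of the genes it gave an adjusted p), and 3 were higher and 0 lower at an unadjusted p under 0.05 in edgeR, where 8.87% of all genes were higher and 9.02% lower. Their median log2 fold change was -0.033, with 11 positive and 13 negative, and those 3 genes were also the ones whose CPM did not overlap between the groups, all of them higher in heat pools; of all genes 24.5% did not overlap, with 11.6% higher and 12.9% lower in every heat pool. The counts of higher genes are near the shares over all genes, and none of the 24 was lower on either measure. These are counts over few genes, and nothing particular to these transporters is read from them. SLC16A10 (TAT1), a basolateral carrier of aromatic amino acids in mammals, had 17.65, 18.17 and 19.42 FPKM in heat pools 1, 2 and 3, against 9.79, 11.81 and 12.75 FPKM in control pools 1, 2 and 3. All heat pools were above all control pools by more than the spread within either group. Its log2 fold change was 0.75 (SE 0.15), with an adjusted p of 0.0888 in edgeR and 0.00299 in DESeq2, and it was between 0.66 and 0.84 without each pool in turn.

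SLC7A3, a carrier of cationic amino acids, had 11.08, 16.53 and 10.63 FPKM in heat pools, against 9.21, 9.12 and 6.63 FPKM in control pools (log2 fold change 0.67, SE 0.21, edgeR adjusted p = 0.171). Its log2 fold change was 0.44 without heat pool 2 and 0.79 without heat pool 1. SLC6A6, the taurine carrier, had 36.63, 32.98 and 27.26 FPKM in heat pools, against 28.05, 27.29 and 20.98 FPKM in control pools, which overlap on this scale and not as CPM (log2 fold change 0.42, SE 0.15, edgeR adjusted p = 0.2). The glutamine carrier SLC38A3 was low, at 0.53 to 1.18 FPKM in heat pools and 0.92 to 1.76 FPKM in control pools, with a log2 fold change of -0.70 (SE 0.37). SLC7A11, a cystine and glutamate exchanger, was at 0.53 to 1.09 FPKM in heat pools and 0.31 to 0.97 FPKM in control pools (log2 fold change 0.34, SE 0.45), and was named after its values were seen. Its log2 fold change lay between -0.0033 and 0.90 without each pool in turn.

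**Figure D5:**
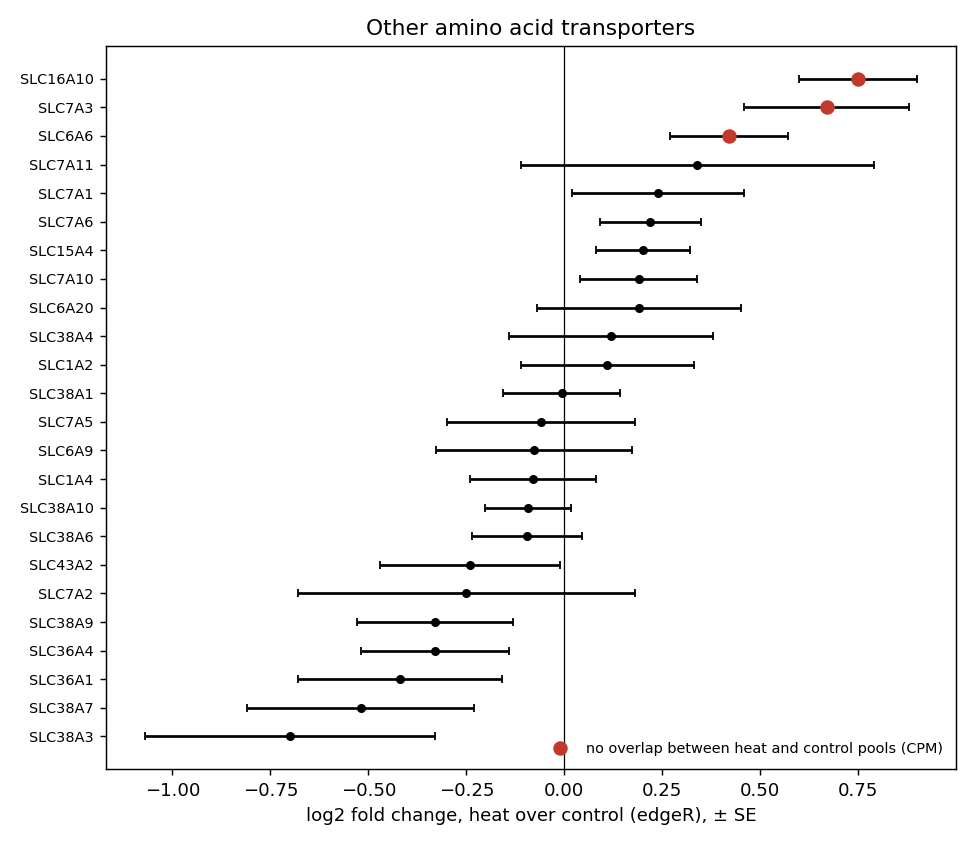
log2 fold change of heat over control (edgeR, bars ± SE) for 24 tested amino acid transporters outside the main list, in order of size. Red points mark the 3 genes, SLC16A10, SLC7A3 and SLC6A6, whose CPM did not overlap between heat and control pools; the values run from -0.70 to 0.75.

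Genes that anchor the carriers or keep the gradients they use showed no common direction. Of 16 such symbols 14 were tested, 7 were positive and 7 negative with a median of -0.01, and none passed in edgeR or DESeq2 (1 was higher and 0 lower at an unadjusted p under 0.05 in edgeR, against 8.87% and 9.02% of all genes). KCNQ1, a potassium channel, had 10.47, 14.96 and 10.01 FPKM in heat pools, against 6.97, 10.12 and 8.83 FPKM in control pools (log2 fold change 0.51, SE 0.19, edgeR adjusted p = 0.23). Its log2 fold change was 0.30 without heat pool 2 and 0.63 without control pool 2. The sodium-proton exchanger SLC9A3, which in mammals helps to keep the proton gradient for SLC15A1, had 39.09, 39.57 and 77.03 FPKM in heat pools, against 39.15, 32.26 and 42.38 FPKM in control pools. Heat pool 3 alone was outside the control range, and the log2 fold change of 0.53 (SE 0.30) was 0.074 without it and 0.72 without heat pool 1. The sodium pump subunit ATP1B1 was at 0.43 (SE 0.28), with 0.11 without heat pool 3 and 0.68 without heat pool 1. The ubiquitin ligase NEDD4L was at 0.18 (SE 0.12), with 0.11 without heat pool 1 and 0.24 without heat pool 3.

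The 14 peptidases that release the carriers' substrates were all tested and none passed in edgeR or DESeq2, and none had an unadjusted p under 0.05 in edgeR. At that unadjusted p 8.87% of all genes were higher and 9.02% lower. DESeq2 called 2.76% of the genes it gave an adjusted p higher and 2.26% lower. Of the 14 peptidases 10 were positive and 4 negative, with a median of 0.074, which lay between -0.20 (without heat pool 3) and 0.22 (without heat pool 2) without each pool in turn. LAP3, a leucine aminopeptidase of the cytosol, was lower in every heat pool, at 53.66, 60.06 and 50.61 FPKM against 64.96, 69.68 and 68.38 FPKM in control pools (log2 fold change -0.23, SE 0.10, edgeR adjusted p = 0.296). As CPM it was also lower in every heat pool, as were 12.9% of all genes. The membrane peptidases MME, MEP1A and ANPEP were at 0.49 (SE 0.32), 0.49 (SE 0.32) and 0.25 (SE 0.22). MME was at 0.19 without control pool 3 and 0.91 without control pool 2. MEP1A was at 0.18 without control pool 2 and 0.73 without control pool 1. ANPEP was at 0.022 without heat pool 3 and 0.41 without heat pool 1.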

How the data were processed

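RNA sequencing of 3 heat and 3 control pools of jejunal mucosa was analysed. The submitters' processing notes name HISAT2 2.0.1, cutadapt 1.9.1, DESeq2, HTSeq 0.6.1 and the build GRCg6a; order, settings and strand are not given in the sources used here. In 1 table of 16317 genes, the authors deposited an estimated count per library, 13.05% to 13.65% of whose values are not whole within 0.001, beside FPKM values, per the file headers. Library depth was 11513427 to 13805395 counts.

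Groups and replicate numbers came from the sample titles. Estimated counts were rounded and tested with edgeR 4.0.16 in R 4.3.3 (glmQLFit, glmQLFTest, TMM scaling, filterByExpr with minimum count 10 and minimum total 15, 13060 genes), with Benjamini-Hochberg adjustment over all genes, two-sided, at 0.05. SE is the absolute log2 fold change over the square root of F. CPM uses TMM-scaled libraries, and log2 CPM a prior count of 2. Gene length was that implied by count and FPKM. Alternatives were DESeq2 1.42.0, limma-trend 3.58.1 on log2(FPKM + 1) or log2(FPKM + 0.1), other scaling and filters, each pool left out, a replicate block and offsets for a gene length trend. The fits were tested on simulated data.

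The members and lists were chosen with earlier results of these data known. Named genes are the members, up to 4 of each other list with the smallest p, and the 3 most like SLC15A1; others are marked as chosen after their values were seen, and marker and overlapping genes are named to describe the pools. Gene identifiers matched a RefSeq gene table of GRCg7b for 15169 genes, used for names and neighbours only. Libraries of a group were distinct, with chi-square over degrees of freedom of 22.2 to 65 for each pair. The spread between these libraries went beyond counting error, and both limit precision. Some values of the lists are not reported here.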

Additional observations from a re-analysis of the deposited data

How the results depend on the processing

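In edgeR 0 members were called under every filter, scaling, length and leave-one-out setting, and DESeq2 called 1 member (SLC38A2) and 1 other amino acid transporter (SLC16A10) higher; limma-trend called none of them. For all genes edgeR called 3 higher and 0 lower, DESeq2 338 and 277, and leaving out each pool 0 to 6 higher and 0 to 1 lower. The median of the other amino acid transporters was between -0.027 and 0.086 without each pool in turn. SLC7A9 turned to -0.14 and -0.15 by limma-trend with pseudocounts of 1 and 0.1, to -0.081 with the replicate block, and lay between -0.27 and 0.31 without each pool. SLC1A1 was at -0.018 by limma-trend with either pseudocount and between -0.092 and 0.14 without each pool. The cause of these changes was not tested. Directions of the other members were kept in every setting.

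Replicate numbers are shared by the titles of both groups. The deviations of same-numbered pools correlated at 0.257, 0.0891 and 0.0169 across genes, and those of differently numbered pools at -0.239 to 0.185. The value of 0.257, for the pools numbered 1, lay above that range and the others lay within it. These values do not settle whether the pools were paired. With the replicate block 0 members were called, against 8 higher and 12 lower of all genes, and SLC38A2 was at 0.66. With 3 pools per group, the smallest exact permutation p is 0.1.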
